A study of Mus musculus with 8 samples.

Results

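Gene deserts are long stretches of the genome without protein-coding genes. Of the 128057 accessible regions counted in tumour dendritic cells, 8829 (6.89%) lay in such stretches. A region was a member when it was on a numbered autosome or the X chromosome, its centre was outside every protein-coding gene body, and it lay more than 100 kb from the nearest annotated end of any protein-coding gene. The rule used position only and no measured value. The cells were intratumoral type 1 conventional dendritic cells (cDC1s) sorted from tumours that the B16-OVA melanoma line, engineered to make the antigen ovalbumin, formed in wild-type mice. Of the 8 ATAC-seq libraries, 4 were taken at day 7 and 4 at day 21 after tumour inoculation. In ATAC-seq a transposase inserts adaptors where chromatin is open, and more reads in a region mean more open chromatin there. The labels do not say which animals each library came from, so the p-values here measure the spread between these libraries, which may be technical.

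Distal regulatory elements can act on promoters over long distances by chromatin looping, and they often occur in groups around developmental and signalling genes. Genes for transcription factors such as Klf6, Id2, Zeb2, Irf8 and Myc stand beside wide stretches without other protein-coding genes. Many such stretches also hold genes for long non-coding RNAs (lncRNAs), transcripts that are not translated. In bulk cells, fewer cells with an open region and less opening per cell cannot be told apart.

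The promoters of 5 lncRNA genes are shown because each overlapped a desert region whose values are given below. Whether their sequence bears on those values was not tested. Gm45805 marks a region that rose, Gm34113 and Gm46069 mark regions that fell, Gm26901 marks the strongest desert region by mean level, and Morrbid, a lncRNA known to regulate its neighbour Bcl2l11 in myeloid cells, lies in one of the most populated hubs. Each sequence is 300 bases from RefSeq (GRCm38.p6), 5′ to 3′ on the strand of the lncRNA, from 250 bases before its annotated start to 50 after. Capitals mark matches to AP-1 (TGANTCA), ETS (GAGGAAGT) or IRF (GAAA, then 2 bases of any kind, then GAAA) motifs on either strand.
Gm45805: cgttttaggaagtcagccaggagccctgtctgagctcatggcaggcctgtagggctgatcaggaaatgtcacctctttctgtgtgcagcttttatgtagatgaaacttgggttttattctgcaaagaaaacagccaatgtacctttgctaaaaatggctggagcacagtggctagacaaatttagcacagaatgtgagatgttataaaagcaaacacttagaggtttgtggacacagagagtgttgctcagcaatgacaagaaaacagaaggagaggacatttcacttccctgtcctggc
Gm34113: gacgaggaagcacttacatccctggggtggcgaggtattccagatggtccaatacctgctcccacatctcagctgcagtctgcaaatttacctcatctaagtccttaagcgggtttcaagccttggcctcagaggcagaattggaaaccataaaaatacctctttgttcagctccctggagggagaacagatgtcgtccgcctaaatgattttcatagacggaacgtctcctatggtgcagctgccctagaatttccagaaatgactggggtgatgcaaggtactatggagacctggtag
Gm46069: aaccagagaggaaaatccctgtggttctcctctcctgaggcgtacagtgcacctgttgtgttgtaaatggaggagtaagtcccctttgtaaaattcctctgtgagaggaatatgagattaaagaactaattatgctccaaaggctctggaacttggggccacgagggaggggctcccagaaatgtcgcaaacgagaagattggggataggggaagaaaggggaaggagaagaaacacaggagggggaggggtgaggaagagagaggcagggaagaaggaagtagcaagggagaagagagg
Gm26901: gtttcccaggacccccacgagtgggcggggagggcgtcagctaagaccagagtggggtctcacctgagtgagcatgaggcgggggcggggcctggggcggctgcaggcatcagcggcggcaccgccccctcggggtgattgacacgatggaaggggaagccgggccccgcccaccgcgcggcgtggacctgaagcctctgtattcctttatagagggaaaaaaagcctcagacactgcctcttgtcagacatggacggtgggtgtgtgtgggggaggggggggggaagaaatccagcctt
Morrbid: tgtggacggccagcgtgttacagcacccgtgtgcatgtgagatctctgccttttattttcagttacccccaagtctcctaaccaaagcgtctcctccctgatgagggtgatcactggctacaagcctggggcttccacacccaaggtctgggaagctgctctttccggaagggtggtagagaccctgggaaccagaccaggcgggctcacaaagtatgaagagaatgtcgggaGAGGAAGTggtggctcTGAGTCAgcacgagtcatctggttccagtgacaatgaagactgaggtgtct

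The Gm45805 promoter was at chr8:126758304-126758603 on the minus strand, and 297 of its bases fell in the region chr8:126757826-126758600. This region lay between Irf2bp2, a transcriptional corepressor gene 164 kb away, and Tomm20, a mitochondrial import receptor gene 172 kb away. Its level was 29.0, 29.7, 30.8 and 31.4 counts per 1000000 counts of the library (CPM) in the day 7 libraries and 51.8, 55.0, 59.1 and 50.4 CPM in the day 21 libraries. All day 21 libraries were above all day 7 libraries. The log2 fold change, day 21 over day 7, was 0.84 ± 0.07 (SE), with an adjusted p of 6.73e-14 in edgeR's quasi-likelihood test.

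The Gm34113 promoter, at chr10:84089433-84089732 on the plus strand, overlapped chr10:84088834-84089583 by 151 bases. That region fell from 8.51 ± 1.44 to 2.95 ± 0.68 CPM (SD, n = 4), a log2 fold change of -1.54 (edgeR adjusted p = 2.57e-09). The Gm46069 promoter, at chr8:34689909-34690208 on the minus strand, lay wholly in chr8:34688739-34690351, 118 kb from Dusp4. That region fell from 13.9 ± 1.63 to 8.37 ± 1.5 CPM (SD, n = 4; log2 fold change -0.72, edgeR adjusted p = 3.76e-05). None of the Gm45805, Gm34113, Gm46069 and Gm26901 windows held a match to the 3 motifs. Morrbid's window, at chr2:128429302-128429601 on the minus strand, held 1 ETS and 1 AP-1 match, and its region was at 25.5 ± 3.42 CPM on day 7 and 25.7 ± 2.57 CPM on day 21 (SD, n = 4). Its libraries overlapped between the days, with a log2 fold change of 0.00 ± 0.09 (SE).

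Across the deserts, 116 regions overlapped the promoter window of a lncRNA. These regions were stronger, with a median of 5.75 CPM against 2.30 CPM for the tested desert regions without such a window. Among the 110 tested, 9 (8.18%) rose and 15 (13.6%) fell, against 9.86% and 9.85% of the tested desert regions without such a window and 9.5% and 9.86% of all tested regions. Among the 126 distinct lncRNA windows over desert regions, the AP-1 letters occurred in 15.1% against 7.79% of all 32544 distinct promoter windows of this length. ETS letters occurred in 12.7% against 3.11%, and IRF letters in 3.17% against 3.45%. The median GC content was 48.7% in the lncRNA windows over desert regions and 53.0% in all windows. These are descriptions of letters in annotated windows, on both strands, and a match is not a bound site. The lncRNA windows were taken because they lay over accessible regions, whereas the 32544 windows were taken whether accessible or not. Accessible promoters and lncRNA promoters outside deserts were not compared. Accessibility, the lncRNA class and desert position therefore cannot be told apart in these shares.

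Desert regions were weaker and slightly narrower than the average accessible region. Their median level was 2.08 CPM against 3.06 CPM over all regions and 11.5 CPM at gene ends, and the strongest reached 99.2 CPM. Among tested regions only, the median was 2.32 CPM in deserts and 2.88 CPM between genes within 100 kb of one. The median width was 345 bp against 364 bp for all regions and 602 bp at gene ends. Other regions away from gene ends were about as narrow, at 346 bp between genes within 100 kb and 351 bp in gene bodies. The median distance of a desert region from a gene end was 188 kb. The 90th percentile was 488 kb and the farthest was 1977 kb away. The nearest other region was at a median of 3.48 kb, against 2.55 kb for regions between genes at 10 to 100 kb from a gene end. Of the members, 1974 overlapped a lncRNA gene, 45 overlapped an antigen receptor gene segment, and 1160 were more than 100 kb from every annotated gene of any kind.

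Library totals ran from 9440223 to 16063736 counts at day 7 and from 14021151 to 27737040 at day 21. Gene ends, meaning regions within 1 kb of either annotated end of a protein-coding gene, took 37.9 to 39.3% of counts at day 7 and 36.1 to 36.6% at day 21. Ends of cDC1 marker genes were open in every library. Of 12 markers, 11 had a region at an end (Itgae had none), and their summed level was 433 to 466 CPM at day 7 and 457 to 489 CPM at day 21. The summed ends of 21 T and NK cell markers (17 measured) ran from 154 to 172 CPM and from 143 to 156 CPM on these days, with 1 higher and 7 lower. Ends of 12 melanoma markers (8 measured, with none at Tyr, Slc45a2 or Oca2) summed to 178 to 193 and 172 to 187 CPM, with 1 higher and 3 lower. The largest parts were Pmel, at means of 123 CPM on day 7 and 116 CPM on day 21, and Mitf, at 40.4 and 46.3 CPM. A region within 1 kb of a listed gene's end can also lie at the end of a neighbouring gene. How much of the Pmel level belongs to Pmel itself was not tested. Gpnmb was at 9.69 and 7.47 CPM and Mlana at 5.73 and 6.39 CPM. Pax3 was at 2.33 and 1.43 CPM and Ednrb at 2.22 and 1.48 CPM, and Sox10 and Tyrp1 were weaker still. Ends of 16 macrophage and monocyte markers (14 measured, with none at Marco or Vsig4) summed to 93.3 to 98.7 CPM at day 7 and 101 to 112 CPM at day 21, with 4 higher. The part of other cell types in the results below was not tested.

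Single desert regions moved in both directions in nearly equal numbers. Of the 8142 members that passed the filter on low counts, 801 were higher and 806 lower at day 21 at an adjusted p under 0.05. That is 19.7% of the tested members (9.84% higher and 9.90% lower), against 19.4% of all 121865 tested regions (9.5% higher and 9.86% lower). The median log2 fold change over tested members was -0.01. The other 687 members were too low to test. Changes of at least 2-fold were seen in 244 members that rose and 413 that fell, of 8142 tested. Over all 121865 tested regions there were 1945 and 4579 such changes (1.6% and 3.76%). Most of those in members were in weak regions: 159 and 290 were in regions up to 2 CPM, and none was in a region over 16 CPM. In 824 members every day 21 library was above every day 7 library and in 792 every one was below, and over all tested regions 19.8% did not overlap.

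Desert regions took 4.02, 3.94, 3.95 and 3.95% of region counts in the day 7 libraries and 4.13, 4.06, 3.95 and 4.10% in the day 21 libraries. The values of the days overlapped. The means were 3.97 ± 0.04% and 4.06 ± 0.08% (SD, n = 4), a difference of 0.0943 percentage points. The exact two-sided permutation test gave p = 0.0857, where 0.0286 is the smallest p that the 70 relabelings allow. Leaving out 1 library at a time gave differences of 0.0710 to 0.131 percentage points. The exact permutation p was 0.2 without day 21 replicate 1, 2 or 4, 0.0286 without day 21 replicate 3, and 0.0857 to 0.143 without any 1 of the day 7 libraries.

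Desert regions over 16 CPM rose more often than they fell, and those up to 2 CPM fell more often than they rose. Among the 3606 weak desert regions tested, up to 2 CPM, 186 (5.16%) rose and 311 (8.62%) fell. Weak regions elsewhere also fell more often than they rose, with 3.20% higher and 8.02% lower between genes within 100 kb, and 3.08% and 7.54% in gene bodies. Among the 532 strongest, over 16 CPM, 172 (32.3%) rose and 36 (6.77%) fell, with a median log2 fold change of 0.15. Regions of that strength between genes but within 100 kb of one moved much the same way, with 940 higher and 275 lower of 3175, as did those in gene bodies, with 1702 higher and 435 lower of 5200. Gene ends of that strength moved the other way, with 442 higher and 2063 lower of 7659. With offsets that follow the level of a region in place of a single factor per library, 161 of the strongest desert regions rose and 49 fell, and 512 gene-end regions of that strength rose and 2100 fell. At 8 to 16 CPM the order of the directions in deserts turned over, from 153 higher and 94 lower to 115 higher and 135 lower with these offsets.

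**Figure D1:**
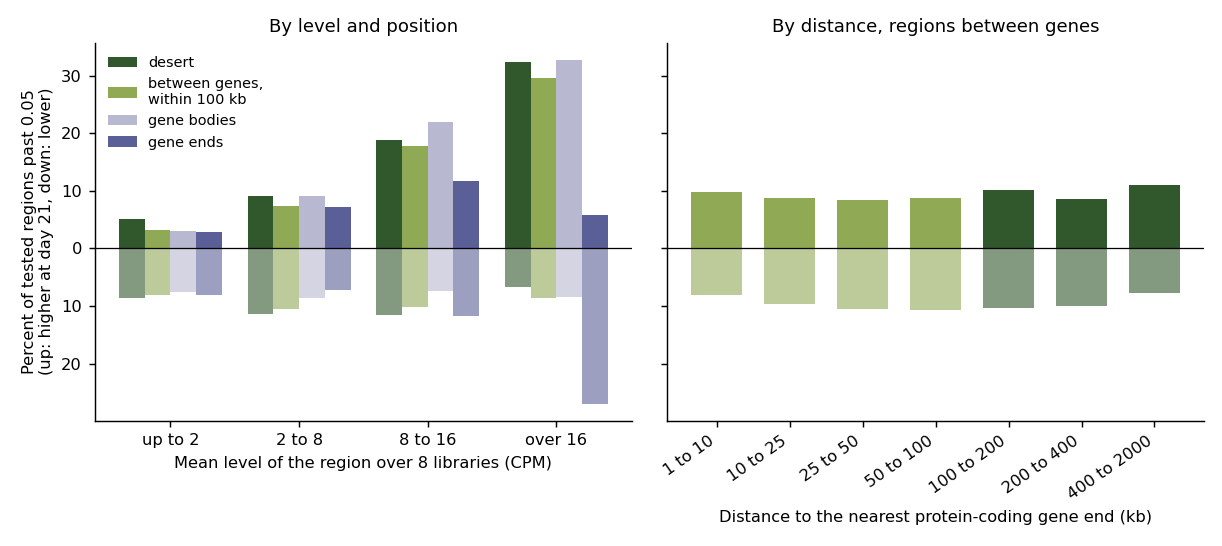
Percent of tested regions higher (up, full colour) or lower (down, pale) at day 21 at an adjusted p under 0.05, by mean level in CPM and position (left) and by distance to the nearest protein-coding gene end in kb for regions between genes (right). Among regions over 16 CPM, 32.3% of desert regions were higher, while 26.9% of gene-end regions were lower; across distance, each direction stays between 7.75 and 11.1%.

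The members just inside the distance limit were set beside the regions just outside it. Just outside it, at 90 to 100 kb, 17.1% of 861 tested regions were called (8.48% lower), and just inside it, at 100 to 110 kb, 20.6% of 714 were called (11.6% lower). Among members at 100 to 200 kb from a gene end, 455 rose and 464 fell of 4464 tested. At 200 to 400 kb, 213 rose and 249 fell of 2478. Beyond 400 kb, 133 rose and 93 fell of 1200.

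The most isolated regions, over 1000 kb from any gene end, leaned upward. This class was singled out after its values were seen. It held 148 regions in 32 gene-free stretches, and 22 rose while 6 fell of 126 tested. Their summed level was 396, 402, 396 and 402 CPM at day 7 and 452, 449, 417 and 464 CPM at day 21. No day 21 library reached down to the day 7 range, and the log2 ratio of the means was 0.16. The exact permutation p was 0.0286, the smallest these 8 libraries allow, and 0.0571 after adjustment over the 4 distance classes compared. At 100 to 200 kb the days did not overlap either, with a log2 ratio of 0.04 and the same exact permutation p, raw and adjusted. The called regions were spread over many stretches, and Celf4/Pik3c3 and Kcnt2/Cdc73 each held 3 that rose.

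The 3 farthest members were weak. The farthest, on chromosome 14 between the protocadherin genes Pcdh20 and Pcdh9, was at 1.10 ± 0.56 CPM on day 7 and 2.00 ± 0.38 CPM on day 21 (SD, n = 4), and its libraries overlapped between the days. The next, between Cntnap5b and Cdh20 on chromosome 1, was at 0.53 ± 0.18 and 0.93 ± 0.23 CPM and also overlapped. The region between Pcdh7 and G6pd2 on chromosome 5, 1821 kb from the nearer gene, fell from 3.14 ± 0.49 to 1.53 ± 0.42 CPM (SD, n = 4; log2 fold change -1.03, edgeR adjusted p = 0.00378).

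The 8 named regions that rose were those with the smallest p among regions past 2-fold whose days did not overlap, 1 per gap. The region chr11:114168166-114169047 stood 102 kb from Sdk2, a cell adhesion gene, and 499 kb from Rpl38, a ribosomal protein gene. It was at 3.99, 2.55, 2.78 and 2.42 CPM at day 7 and at 5.84, 13.3, 11.3 and 11.1 CPM at day 21. The groups did not overlap, although day 21 replicate 1 was well below the other 3. The log2 fold change was 1.83 ± 0.20 (SE; edgeR adjusted p = 4.01e-11). The region chr13:35208197-35208782, 181 kb from Eci2, a fatty acid oxidation gene, rose from 7.65 ± 1.22 to 17.0 ± 1.83 CPM (SD, n = 4), a log2 fold change of 1.16. Between Nlgn1 and Spata16, chr3:26528809-26529367 rose from 8.19 ± 0.66 to 17.9 ± 3.92 CPM (log2 fold change 1.11). The remaining 5 of the 8 named risers lay between Maip1 and Spats2l (log2 fold change 1.05), Ddx18 and Dpp10 (1.00), Myo16 and Irs2 (1.14), Adam6a and Zfp386 (1.63), and Gm5148 and Ankrd50 (1.63). Of the genes flanking the 8, the ends of Rpl38 (-0.26), Maip1 (-0.41) and Ankrd50 (-0.25) were lower past the threshold, and those of Irs2 (0.22) were higher.

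The region between Adam6a and Zfp386, at chr12:115544569-115544978, sits within the stretch that holds the variable segments of the immunoglobulin heavy chain locus. It was at 2.08, 1.17, 2.36 and 3.35 CPM at day 7 and at 7.17, 5.84, 9.20 and 6.87 CPM at day 21, with no overlap. Most of that stretch did not pass the test: of 54 tested regions there, 4 were higher and 1 lower. Over all members that overlapped antigen receptor segments, 2 were higher and 1 lower of 40 tested.

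Among the desert regions that fell, the one with the smallest p was chr13:6159406-6160012, 289 kb from Klf6, an early-response transcription factor gene. It was at 10.2, 11.9, 12 and 8.2 CPM at day 7 and at 2.39, 1.20, 1.7 and 2.42 CPM at day 21. Every day 21 library was far below every day 7 library, and the log2 fold change was -2.43 ± 0.20 (SE; edgeR adjusted p = 1.65e-15).

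The region chr4:95277720-95278875, 226 kb from Jun, which encodes part of the AP-1 complex, fell from 8.69 ± 1.03 to 2.18 ± 0.27 CPM (SD, n = 4; log2 fold change -2.01, edgeR adjusted p = 8.98e-13). Between Tnfsf18 and Fasl, which encode ligands of the tumour necrosis factor family, chr1:161657503-161657947 fell from 6.01 ± 0.88 to 0.76 ± 0.35 CPM (SD, n = 4; log2 fold change -2.93, edgeR adjusted p = 2.77e-13). The ends of Fasl, Fas ligand, were also lower, by -1.92 on the log2 scale (edgeR adjusted p = 0.00373). Near Tmsb4x, an actin-binding protein gene on the X chromosome, chrX:166791081-166791515 was at 3.99, 4.46, 5.40 and 3.85 CPM at day 7. At day 21 it was at 0.42, 0, 0.35 and 0.11 CPM, where the count of 0 allows up to 0.18 CPM. Its log2 fold change of -4.40 was the most negative of the 8 named, and the ends of Tmsb4x were higher by 0.51.

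The other 4 named regions that fell were next to Rap2b (log2 fold change -2.21), between Map3k1 and Ankrd55 (-2.26), between St3gal1 and Zfat (-2.55), and between Nmbr and Cited2 (-2.73). The ends of Rap2b, a small GTPase gene, were at -0.17 (edgeR adjusted p = 0.0156), and those of Cited2, a transcriptional coregulator gene, at -0.03 (edgeR adjusted p = 0.744).

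**Figure D2:**
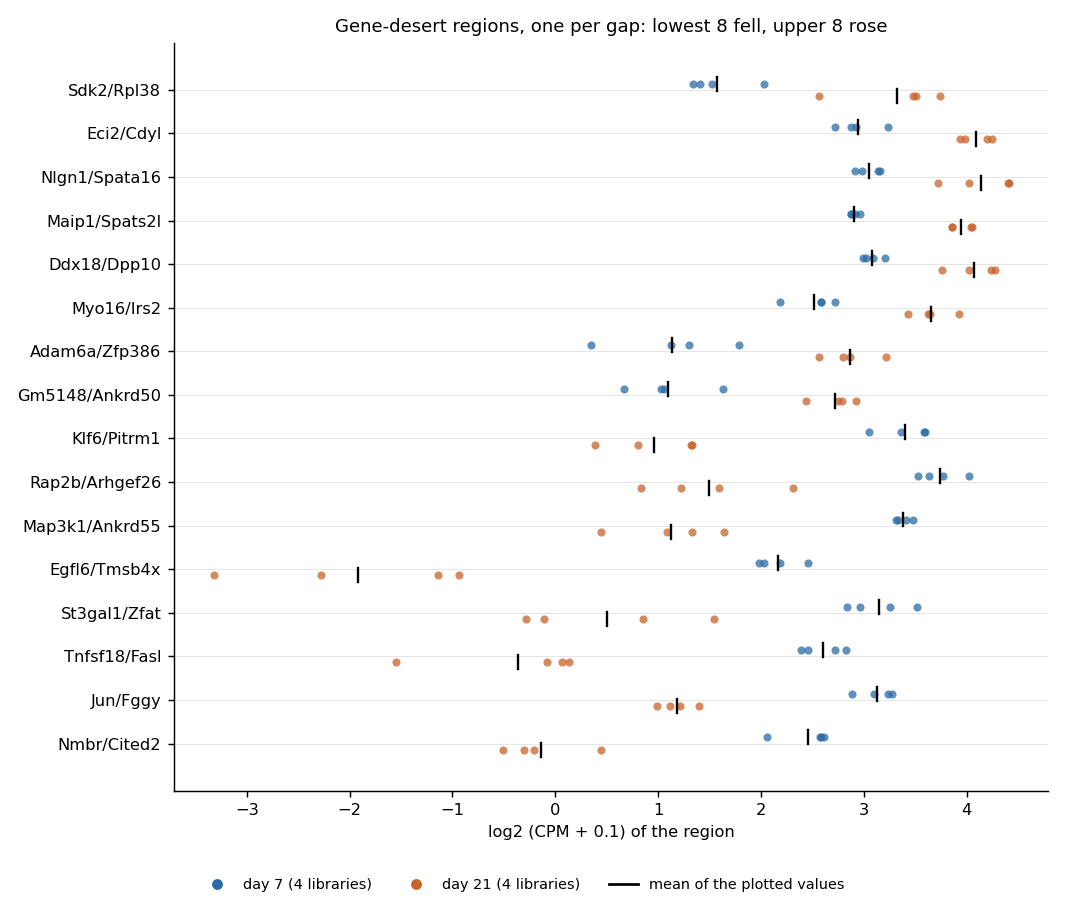
Level of the 16 named single regions in each of the 8 libraries, as log2 (CPM + 0.1), labelled by the genes on either side; bars mark the mean of the plotted values. The upper 8 rose and the lower 8 fell, with no overlap of the days, and the region beside Egfl6 and Tmsb4x reaches the lowest values, with 1 library at a count of 0.

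The strongest single members changed little in size. The region chr1:7397313-7398459, between Pcmtd1 and Sntg1, holds the Gm26901 promoter shown above. It was at 103, 131, 105 and 103 CPM at day 7 and at 88.8, 94.9, 84.9 and 83.2 CPM at day 21, with no overlap, and its log2 fold change was -0.33 (edgeR adjusted p = 5.62e-05). The region chr5:118404233-118404984 between Spring1 and Med13l rose from 86.0 ± 5.01 to 99.9 ± 5.88 CPM (SD, n = 4; log2 fold change 0.22, edgeR adjusted p = 0.00521). That call was lost without day 7 replicate 4 (0.17, edgeR adjusted p = 0.0557) or day 21 replicate 3 (0.16, edgeR adjusted p = 0.0551). The region chr13:112000754-112001598 between Map3k1 and Ankrd55 was at 89.0 ± 3.62 and 97.3 ± 9.94 CPM, and its days overlapped.

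Desert regions were clustered. When consecutive regions with centres at most 25 kb apart were joined, the members formed 2761 runs. Of these, 1358 were single regions, 528 were pairs, and 875 were hubs of at least 3 regions. The hubs held 6415 regions, 72.7% of the members. A hub had a median of 5 regions over 28.3 kb, and the largest had 70 regions over 357 kb. Summed counts of a hub were tested like those of a region, and 170 hubs were higher and 158 lower at day 21. That is 37.5%, against 30.1% of all 16257 runs of the whole table, which unlike the hubs include single regions and pairs. Hubs moved past 2-fold in 8 cases upward and 7 downward.

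Within hubs, neighbouring regions did not always move together. Of the 266 hubs with at least 2 called regions, 170 had calls in 1 direction only and 96 had calls in both. In 378 hubs no region was called. Among the 52 hubs of 20 or more regions, 7 were higher and 16 lower, and 33 contained regions of both directions.

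The clearest hub gain lay between Myo16 and Irs2, the gene of insulin receptor substrate 2, an adaptor of insulin and growth factor signalling. This hub, chr8:10794278-10872329, had 17 regions at 112 kb or more from Irs2. Its summed level was 129, 125, 134 and 131 CPM at day 7 and 188, 233, 233 and 210 CPM at day 21. All day 21 libraries were above all day 7 libraries, and the log2 fold change was 0.73 ± 0.05 (SE; edgeR adjusted p = 8.23e-18). Of its 17 regions, 10 rose and none fell, and the strongest went from 30.4 ± 2.61 to 53.0 ± 7.71 CPM (SD, n = 4). The ends of Irs2 were also higher, by 0.22 (edgeR adjusted p = 0.00191).

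A hub of 13 regions between Fhl2 and Nck2, an adaptor protein gene, rose from 123 ± 8.01 to 168 ± 9.47 CPM (SD, n = 4; log2 fold change 0.44), with 4 regions higher and none lower. The ends of Nck2 rose by 0.36 (edgeR adjusted p = 0.000637). A hub of 17 regions between Uaca and Tle3, a transcriptional corepressor gene, rose from 176 ± 6.43 to 235 ± 23.8 CPM (log2 fold change 0.41), with 9 regions higher and 1 lower. The ends of Tle3 were at -0.12 (edgeR adjusted p = 0.246). Small hubs showed larger folds: between Pfkp, a phosphofructokinase gene, and Adarb2, 4 regions together rose from 4.47 ± 1.21 to 12.9 ± 2.67 CPM (log2 fold change 1.52), 310 kb from Pfkp. Between Ddx18 and Dpp10, 3 regions rose together from 9.97 ± 0.85 to 23.4 ± 4.09 CPM (log2 fold change 1.21).

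Hubs that fell included 1 on each side of Klf6. The hub toward Akr1e1, chr13:5704916-5759853, had 10 regions from 102 kb outward. It was at 36.8, 33.7, 42.2 and 36.2 CPM at day 7 and at 21.0, 19.3, 18.9 and 16.5 CPM at day 21. The groups did not overlap, and the log2 fold change was -0.99 ± 0.09 (SE; edgeR adjusted p = 8.07e-13). The hub toward Pitrm1, chr13:6108861-6261853, had 21 regions from 239 kb outward and fell from 82.9 ± 2.48 to 55.1 ± 3.75 CPM (SD, n = 4; log2 fold change -0.59, edgeR adjusted p = 8.83e-12). In these hubs 6 and 7 regions fell, and none rose.

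Taking every desert region around Klf6, 11 were lower and 1 higher of 33 tested toward Akr1e1, and 8 were lower and none higher of 35 tested toward Pitrm1. Over all tested regions 9.86% were lower and 9.5% higher. The loss differed between neighbours. Toward Pitrm1, a region at 239 kb went from 12.2 ± 1.22 to 9.35 ± 1.33 CPM (log2 fold change -0.38), while one at 356 kb went from 5.11 ± 1.15 to 0.97 ± 0.69 CPM (-2.50). The ends of Klf6 itself were at 0.11 ± 0.05 (SE) on the log2 scale and did not pass the test (edgeR adjusted p = 0.115). On the far sides, the ends of Akr1e1 were lower by -0.40 ± 0.10 (SE, edgeR adjusted p = 0.00137), and those of Pitrm1 were at -0.02 (edgeR adjusted p = 0.859).

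**Figure D3:**
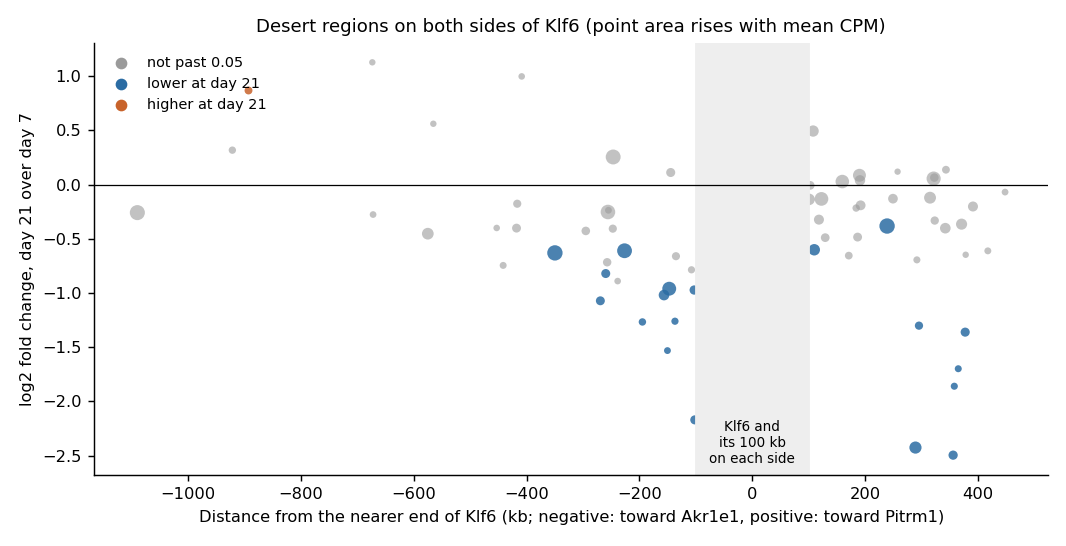
Log2 fold change (day 21 over day 7) of each tested desert region on both sides of Klf6, against its distance in kb from the nearer end of Klf6; point area rises with mean CPM, and colour marks regions past an adjusted p of 0.05. On the side of Akr1e1 11 regions are lower and 1 is higher, and on the side of Pitrm1 8 are lower and none is higher.

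A hub between Saraf and Dusp4, a MAP kinase phosphatase gene, had 8 regions from 104 kb outward and included the Gm46069 promoter. It fell from 31.3 ± 2.77 to 15.9 ± 1.11 CPM (SD, n = 4; log2 fold change -0.97, edgeR adjusted p = 8.15e-12), with 4 regions lower and none higher. The ends of Dusp4 were lower by -0.57 (edgeR adjusted p = 6.13e-07).

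The steepest of the named losses was a hub of 8 regions between Ccer1 and Atp2b1, a plasma membrane calcium pump gene, 393 kb from the latter. It fell from 34.8 ± 5.56 to 15.2 ± 2.12 CPM (SD, n = 4; log2 fold change -1.20), and the ends of Atp2b1 were at -0.08 (edgeR adjusted p = 0.232). A second hub in the same stretch, with 34 regions nearer to Atp2b1, was at 383 ± 10.5 and 404 ± 24.2 CPM, and its days overlapped. Hubs between Cdc42ep3 and Rmdn2 (7 regions, log2 fold change -0.99) and between Gm46240 and Dcn (6 regions, -0.79) also fell.

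**Figure D4:**
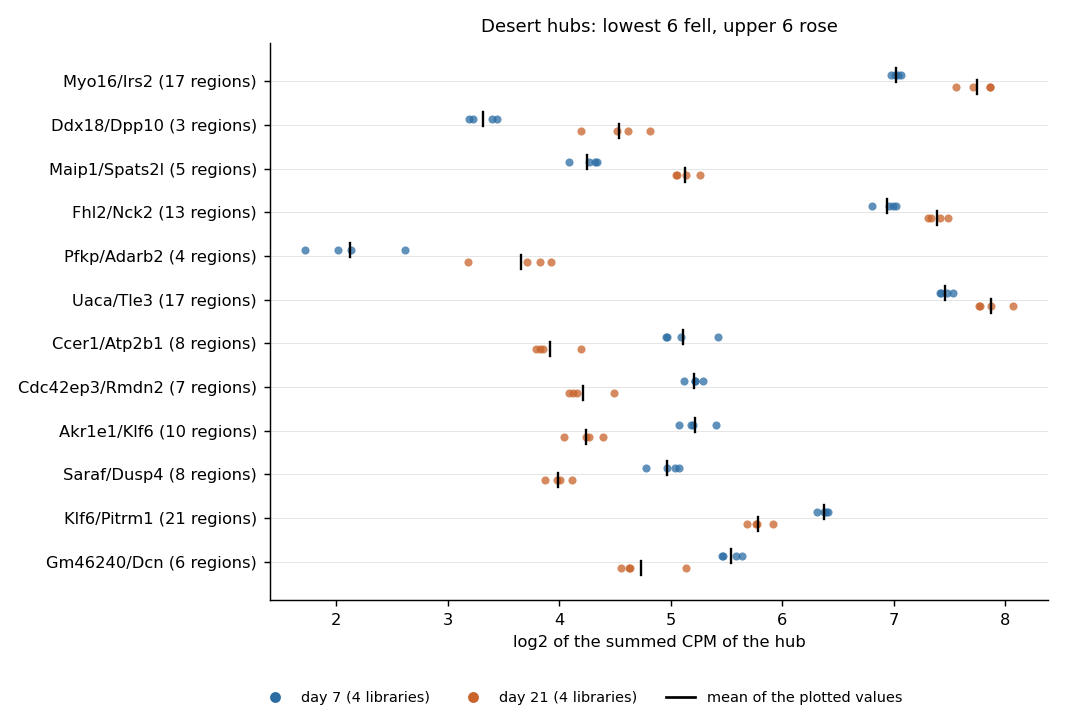
Summed level of the 12 named hubs in each library as log2 of CPM, labelled by the flanking genes and the number of regions; bars mark the mean of the plotted values. The days do not overlap in any of these hubs, and those beside Myo16 and Irs2, Fhl2 and Nck2, and Uaca and Tle3 are the 3 strongest of them.

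The summed levels of the 5 most populated hubs differed between the days by at most 0.18 on the log2 scale. The largest began 101 kb from Id2, an inhibitor of E-protein transcription factors that cDC1s require. Its 70 regions summed to 568, 523, 554 and 565 CPM at day 7 and to 567, 571, 592 and 561 CPM at day 21, so the days overlapped. The log2 fold change was 0.05 ± 0.04 (SE). Inside it 7 regions rose and 10 fell. A region 118 kb from Id2 fell from 17.4 ± 1.02 to 10.2 ± 0.78 CPM, whereas one at 234 kb rose from 33.8 ± 0.66 to 41.9 ± 3.07 CPM (SD, n = 4).

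Between Cd83, a maturation marker of dendritic cells, and Jarid2, a hub of 62 regions went from 380 ± 8.48 to 414 ± 25.7 CPM (SD, n = 4; log2 fold change 0.12, edgeR adjusted p = 0.0124). That call was lost without day 7 replicate 2 (0.11, edgeR adjusted p = 0.0521) and without day 21 replicate 3 (0.07, edgeR adjusted p = 0.121). The ends of Jarid2, 105 kb from this hub, were lower by -0.24 (edgeR adjusted p = 0.00128), and those of Cd83 were at 0.12 (edgeR adjusted p = 0.131). The hub between Bcl2l11, a pro-apoptotic gene, and Spdye4c has 58 regions and includes the Morrbid promoter. It was at 292 ± 5.66 and 308 ± 27.9 CPM and its days overlapped. The hub between Klf14 and Mkln1, which holds the lncRNA Lncpint, had the highest level and 55 regions. It rose from 658 ± 23.1 to 744 ± 41.7 CPM (SD, n = 4; log2 fold change 0.18, edgeR adjusted p = 0.000182), with 12 regions higher and 3 lower. The hub beside Klf4, with 52 regions, was at 321 ± 7.34 and 337 ± 19.8 CPM and its days overlapped. A hub of 23 regions between Map3k1, a MAP kinase kinase kinase gene, and Ankrd55 rose from 446 ± 12.3 to 514 ± 42.9 CPM (SD, n = 4; log2 fold change 0.20, edgeR adjusted p = 8.68e-05), although a separate region in the same stretch was at -2.26.

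When desert regions were summed over the whole stretch between a pair of neighbouring protein-coding genes, called a gap here, the members fell into 935 gaps with a median width of 547 kb. Of 902 tested gaps, 228 were higher and 126 lower at day 21. That is 39.2%, against 33.4% of all 17369 sums per gap or per nearest gene, of which 15.1% were higher and 18.3% lower. The sums per nearest gene took in regions at gene ends and in gene bodies, so they differ in kind from the gaps. Of the gene ends alone, 6.72% were higher and 24.6% lower. Sums of regions between genes but within 100 kb of one were not compared. The median log2 fold change of the gaps was 0.08 against -0.02 over all sums. The 128 gaps with 20 or more regions held 52.0% of the members, and 31 of them were higher and 32 lower.

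The ends of the flanking genes were set beside the gaps. Beside the gaps that rose, 253 flanking genes were measured at their ends, and 22 (8.70%) were higher and 40 (15.8%) lower. Beside the gaps that fell, 13 (7.83%) were higher and 50 (30.1%) lower of 166. Beside gaps that did not pass the test the shares were 10.1% and 24.7% of 656, and over all 13566 genes 6.72% and 24.6%. These shares were compared by description only.

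Gaps beside immediate-early and feedback genes, which respond quickly to signals, were lower more often than higher. Of 13 such gaps, 6 were lower and 1 was higher, with a median log2 fold change of -0.12, whereas over all tested desert gaps 13.97% were lower and 25.3% higher. Those shares are not matched for size, since desert gaps had a median of 4 regions. Of the 128 gaps with 20 or more regions, 32 were lower and 31 higher. The 13 gaps held 378 desert regions, of which 16 rose and 64 fell among 358 tested. Over all tested desert regions 9.84% rose and 9.90% fell. Both Klf6 gaps belonged to this group, at -0.48 ± 0.05 and -0.36 ± 0.05 (SE), as did Saraf/Dusp4 at -0.28 ± 0.05. The gap between Rad51b and Zfp36l1, an mRNA decay factor gene, held 3 regions and was at 4.93 ± 0.57 and 2.97 ± 1.27 CPM (SD, n = 4; log2 fold change -0.75), with overlapping days. That call was lost without day 21 replicate 3 (-0.58, edgeR adjusted p = 0.0507).

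The Jun/Fggy gap was at 271, 280, 267 and 275 CPM at day 7 and at 246, 253, 240 and 265 CPM at day 21. All day 21 libraries were lower, and the log2 fold change was -0.12 ± 0.04 (SE; edgeR adjusted p = 0.0235). The ends of Jun moved the other way, by 0.55 ± 0.06 (SE; edgeR adjusted p = 5.13e-12). The gap between Sec61b and Nr4a3, an orphan nuclear receptor gene, was at -0.13 (edgeR adjusted p = 0.0124), and the ends of Nr4a3 were lower by -0.26. The gap beside Tnfaip3, an inhibitor of NF-kB signalling, rose from 93.9 ± 6.46 to 111 ± 4.11 CPM (SD, n = 4; log2 fold change 0.25, edgeR adjusted p = 0.000196). These small shifts of the Jun and Nr4a3 gaps were lost when single libraries were left out: Jun/Fggy without day 7 replicate 2 or 4 or day 21 replicate 1 (edgeR adjusted p = 0.0683, 0.0620 and 0.0693), and Sec61b/Nr4a3 without day 7 replicate 3 (edgeR adjusted p = 0.0859).

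Gaps beside dendritic cell transcription factor genes were also more often lower than higher. Of 17 gaps, 7 were lower and 1 higher, with a median of -0.04, against 13.97% and 25.3% of all tested desert gaps. Many of all gaps were small, and of the 128 with 20 or more regions, 32 were lower and 31 higher. Of the 625 tested regions in the 17 gaps 49 rose and 85 fell, against 9.84% and 9.90% of all tested desert regions. The gap that rose lay between Irf8, the transcription factor gene on which cDC1 development depends, and Foxf1. Its 6 regions summed to 9.30, 7.44, 10.5 and 11.1 CPM at day 7 and to 15.1, 15.7, 12.7 and 12.7 CPM at day 21. The days did not overlap, with a log2 fold change of 0.53 ± 0.13 (SE; edgeR adjusted p = 0.000957), and the 3 regions that rose were 106, 127 and 133 kb from Irf8. The ends of Irf8 were lower, from 54.8 ± 5.91 to 38.2 ± 2.84 CPM (SD, n = 4; log2 fold change -0.51, edgeR adjusted p = 7.81e-08). Irf8/Foxf1 also counts among 3 gaps beside cDC1 marker genes, of which 2 were higher and 0 lower. Those 3 gaps held only 6 tested regions, and the 3 that rose were the ones in Irf8/Foxf1.

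Among the gaps that fell, Prdm1/Prep, beside the gene of the repressor Blimp-1, went from 135 ± 7.89 to 116 ± 1.97 CPM (SD, n = 4; log2 fold change -0.22), and the ends of Prdm1 were lower by -0.50. Ets1/Kirrel3 was at -0.38 and Cebpb/Ptpn1 at -0.19. The gaps on both sides of Myc, A1bg/Myc and Myc/Gsdmc, were at -0.18 and -0.13, while the ends of Myc were higher by 0.39 (edgeR adjusted p = 0.00169). Mc2r/Tcf4, beside an E-protein gene, was at -0.12 and the ends of Tcf4 at -0.33. The gap of Zeb2, a zinc-finger repressor gene, is 3697 kb wide and was at -0.11 ± 0.04 (SE; edgeR adjusted p = 0.0298). One of its regions, chr2:45231576-45232053 at 114 kb from Zeb2, fell from 3.20 ± 0.56 to 0.54 ± 0.16 CPM (log2 fold change -2.48). Several of these calls were lost when single libraries were left out. For Cebpb/Ptpn1 the edgeR adjusted p was 0.0512 without day 7 replicate 3 and 0.0692 without day 21 replicate 2. For A1bg/Myc it was 0.0555 without day 21 replicate 3 and 0.0562 with level-following offsets, and for Myc/Gsdmc 0.0553 without day 7 replicate 3. For Mc2r/Tcf4 it was 0.105, 0.0932 and 0.0833 without day 7 replicate 1, day 7 replicate 3 and day 21 replicate 2. For Zeb2/Acvr2a it was 0.0564, 0.0777 and 0.0733 without day 7 replicates 1, 2 and 4, and 0.0517 and 0.0668 without day 21 replicates 1 and 2.

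**Figure D5:**
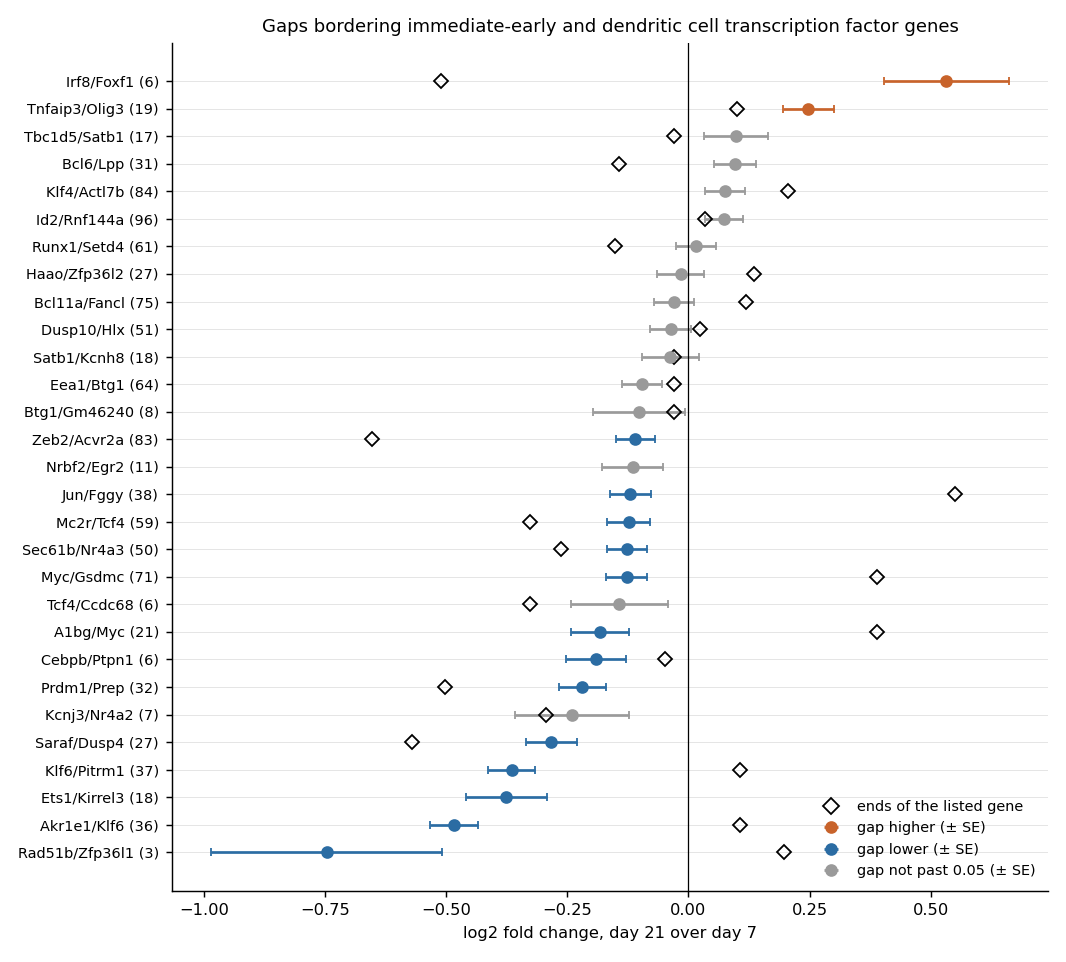
Log2 fold change (day 21 over day 7) with its SE for each gap of at least 3 desert regions beside an immediate-early or dendritic cell transcription factor gene, with the number of regions in brackets; open diamonds give the ends of the listed gene. The gaps of Klf6, Jun and Myc lie below 0 while the ends of these genes lie above it (those of Klf6 not past the threshold), and the Irf8 gap lies above 0 with the Irf8 ends below it.

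None of 3 gaps beside a maturation or migration gene passed the adjusted threshold in edgeR, and 2 of them had an unadjusted p under 0.05. Cd83/Jarid2 was at 0.10 (edgeR adjusted p = 0.0544), Ptger4/Dab2 at -0.10 (0.0524) and Adra1b/Il12b at -0.01 (0.854). Ptger4/Dab2 did pass with level-following offsets (-0.17, edgeR adjusted p = 0.000388) and without day 21 replicate 1 or 3 (0.0193 and 0.0242). Cd83/Jarid2 passed without the filter (edgeR adjusted p = 0.0421) but was at -0.00340 with level-following offsets. For the counts of single regions that follow, 9.5% of all tested regions rose and 9.86% fell. Within Ptger4/Dab2, beside the prostaglandin E2 receptor gene Ptger4, 11 regions fell and 2 rose of 50 tested. One of those that fell, chr15:5431165-5431643 at 187 kb from Ptger4, went from 6.64 ± 0.37 to 1.99 ± 0.83 CPM (SD, n = 4, log2 fold change -1.77). The Eea1/Btg1 gap was similar, with 15 regions lower and 4 higher of 62 tested and a sum at -0.10 (edgeR adjusted p = 0.0663). That sum passed with level-following offsets (-0.21, edgeR adjusted p = 8.20e-07), with thinning (0.0454) and without day 21 replicate 3 (0.000207). The most populated gap, Nmbr/Cited2, held 105 regions, with 18 lower and 6 higher of 103 tested, and its sum fell from 475 ± 26.2 to 434 ± 2.70 CPM (SD, n = 4; log2 fold change -0.13, edgeR adjusted p = 0.0121). That call was lost without day 7 replicate 2 (-0.09, edgeR adjusted p = 0.107).

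Gaps beside marker genes of other cell types moved in both directions. Of 7 gaps beside T and NK cell genes, 3 were higher and 2 lower, where 25.3% and 13.97% of all tested desert gaps were. Of the 87 tested regions in them 9 rose and 6 fell, against 9.84% and 9.90% of all tested desert regions. The gap ending at Eomes, a T-box transcription factor gene, fell from 4.29 ± 0.97 to 1.16 ± 0.70 CPM (SD, n = 4; log2 fold change -1.99, edgeR adjusted p = 7.62e-07), and the ends of Eomes were lower by -0.67. The gap beside Tox rose by 0.21, and that beside Ifng by 0.16 while the ends of Ifng were lower by -1.64. Between Ptprd and Tyrp1, a pigment enzyme gene, the gap rose from 7.85 ± 0.40 to 13.7 ± 2.37 CPM (log2 fold change 0.80), while the ends of Tyrp1 were lower by -2.23. Both sets of ends were weak, at 1.84 ± 0.71 and 0.66 ± 0.60 CPM for Ifng and 1.32 ± 0.55 and 0.30 ± 0.27 CPM for Tyrp1 (SD, n = 4). The gap between the receptor tyrosine kinase genes Kit and Kdr rose from 99.0 ± 5.22 to 130 ± 4.01 CPM (SD, n = 4; log2 fold change 0.40, edgeR adjusted p = 9.26e-09). In that gap chr5:75791076-75792233 went from 33.9 ± 4.21 to 50.2 ± 1.63 CPM. The gaps at Col3a1 and Dcn, both stromal matrix genes, were at 0.26 and -0.58. The call at Ifng was lost without day 7 replicate 1 (edgeR adjusted p = 0.0632), and that at Col3a1 without day 21 replicate 2 (0.0661). The third T and NK cell gap that was higher, Icos/Pard3b, lost its call without day 7 replicate 2, day 21 replicate 2 or day 21 replicate 3 (edgeR adjusted p = 0.0690, 0.112 and 0.0633). How far other cells in the sort took part in these changes was not tested.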

How the data were processed

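The table that the authors deposited holds whole-number counts of 8 libraries in 128057 regions common to all, on mm10. The submitters' processing notes name MACS2 2.1.0.20150603, cutadapt 1.9, bedtools, SAMtools and Picard 1.65. The aligner, the rule that merged peaks, the counting base of the coordinates and any shift for the transposase are not given in the sources used here, so a position may be off by a base or a few.

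Genes were the 21627 protein-coding genes on chromosomes 1 to 19 and X of a RefSeq table of GRCm38.p6. Distances ran from the centre of a region to the nearer gene end. Counts of regions, runs, gaps and gene ends were tested with edgeR 4.0.16 (filterByExpr, TMM factors 0.978 to 1.01, glmQLFit and glmQLFTest with the day as the only term) in R 4.3.3, with Benjamini-Hochberg adjustment over the whole table and a threshold of 0.05. CPM used TMM-scaled totals, and the common biological coefficient of variation was 0.133. In simulated data only a small share of 121456 regions was changed. There the fit called 76% of 50 regions raised 2-fold and 56.8% of 44 lowered 2-fold. At a log2 change of 0.5 up or down it called 8% and 4% of 50. In the real data 19.4% of tested regions were called, which loosens the cutoff on the raw p. The simulated rates therefore do not give the share of changes missed here.

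Named regions were the 8 higher and 8 lower with the smallest p among those past 2-fold whose days did not overlap, 1 per gap, plus the 3 strongest and 3 farthest. Named hubs were the 6 higher and 6 lower with the smallest p, the 5 with the most regions and the 5 with the highest CPM. Named gaps were the 6 with the most regions and those of at least 3 regions beside a listed gene. Beyond this rule, lncRNA promoters and regions inside named gaps were chosen after their values were seen. The members and gene lists were chosen with earlier results of these data known. The lists for B cells (1 gap), neutrophils (0 gaps), pDCs (1 gap, not tested) and macrophages (1 gap) had no gap past the threshold. GC content and motifs were not computed for the regions, because no genome was used here. Alternatives were DESeq2 1.42.0, limma 3.58.1 (voom), other scalings and filters, thinning, other distances, and leaving out each library.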

Additional observations from a re-analysis of the deposited data

Results flagged for a closer look

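In 10 of 174 groups of 4 libraries (5.75%), 1 library stood apart by Dixon's test at the 95% level, which flags about 5% of groups by chance. At day 7, the share of counts in desert regions was 4.02% in replicate 1 against 3.94 to 3.95% in the others. The region between Nmbr and Cited2 was at 4.07 CPM in replicate 1 against 5.84 to 6.03 CPM, and the strongest region, between Pcmtd1 and Sntg1, was at 131 CPM in replicate 2 against 103 to 105 CPM. The Rad51b/Zfp36l1 gap was at 4.07 CPM in replicate 1 against 5.21 to 5.23 CPM, and the Ptger4/Dab2 gap at 310 CPM in replicate 3 against 322 to 324 CPM.

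At day 21, replicate 1 was above the others in 3 hubs that fell. It was at 18.4 CPM against 13.8 to 14.4 CPM beside Ccer1, at 22.5 CPM against 17 to 17.9 CPM beside Cdc42ep3, and at 35.1 CPM against 23.5 to 24.8 CPM beside Dcn. The Ets1/Kirrel3 gap was likewise at 33.5 CPM in replicate 1 against 26.7 to 27.9 CPM. The Sec61b/Nr4a3 gap was at 429 CPM in replicate 3 against 398 CPM in the other 3 libraries.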

How the results depend on the processing

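The counts of desert regions moved with the definition of a desert: over 50 kb from gene ends, 1347 were higher and 1474 lower of 14398 tested; over 200 kb, 346 and 342 of 3678; and with all annotated genes in place of protein-coding genes, 120 and 96 of 1042. These sets differ in size by construction. Leaving out 1 library at a time gave 600 to 771 higher and 656 to 855 lower regions, 138 to 165 higher and 137 to 164 lower hubs, 181 to 226 higher and 106 to 128 lower gaps, and a difference in the share of counts of 0.0710 to 0.131 percentage points. DESeq2 called 708 regions higher and 757 lower, limma-voom 742 and 839, and thinning every library to the smallest total left 609 and 612.

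The labels do not say that replicate numbers pair the libraries. With the mean of each day removed, same-numbered libraries correlated at 0.004 to 0.010, and differently numbered ones at -0.011 to 0.013. Many regions had few counts, so these values cannot show whether same-numbered libraries shared a batch. With the replicate block, 769 regions were higher and 766 lower, 175 and 160 hubs, and 229 and 135 gaps. The share of counts differed by 0.0943 percentage points, with an exact paired sign-flip p of 0.25. The block brought the gaps Cd83/Jarid2, Eea1/Btg1 and Ptger4/Dab2 past the threshold.

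Of 1052 alternatives run on 77 named regions, hubs and gaps, 1001 kept direction and call, 28 lost the call, 14 gained one and 9 changed sign. The sign changes were all in values near 0 that had not passed the threshold as reported. They were the region of the Morrbid promoter with level-following offsets (-0.0284), thinning (-0.00999), limma-voom (-0.00874) and single libraries left out (-0.0790 to 0.0531), the hub Bcl2l11/Spdye4c with single libraries left out (-0.00125 to 0.109), and, with level-following offsets, the gaps Id2/Rnf144a (-0.0498), Cd83/Jarid2 (-0.00340) and Klf4/Actl7b (-0.0160). The region Map3k1/Ankrd55 at 97.3 CPM passed the threshold with those offsets (0.22). The cause was not tested. Weak regions limit what can be seen, since 687 members were too low to test. The planned description of motifs over all regions was not run.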
